A study of Macaca mulatta with 22 samples.

Results

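Splicing genes were followed through oocyte maturation and preimplantation development of the rhesus macaque. The members are entries of 1 expression table whose gene symbol begins with SNRP, SF3A, SF3B, PRPF, SRSF, U2AF or HNRNP, or is LSM1 to LSM8. Of 35468 entries, 83 matched, and 74 of these, with 69 symbols, reached 1 RPKM (reads scaled to gene length and to the mapped reads of the library) in at least 2 of 22 libraries and were tested. They were sorted into 3 classes. The snRNP class (SNRP, SF3, PRPF, U2AF and LSM genes) held 42 tested entries of 46, the SR class (SRSF genes) 12 of 13 and the hnRNP class (HNRNP genes) 20 of 24. Each library came from a single oocyte or embryo. Stages with 2 libraries were the germinal vesicle (GV) and metaphase I (MI) oocyte, the 2-cell (2C) and 8-cell (8C) embryo and the blastocyst (Bl). Stages with 3 libraries were the metaphase II (MII) oocyte, the pronuclear (PN) and 4-cell (4C) embryo and the morula (Mo). The oocytes were collected after death from donors that had been superovulated, and the embryos were made by injecting a sperm into the oocyte and were cultured, so MII and PN differ in source as well as in stage. The labels give no genotype, age or treatment beyond this and name no animal. The spread behind a p-value is that between libraries of single oocytes or embryos, pooled over all stages. Within it, differences between cells, donors and library preparations cannot be told apart.

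Introns are removed from pre-mRNA by the spliceosome, which is built from small nuclear ribonucleoproteins (snRNPs). In most snRNPs a ring of Sm proteins encircles the snRNA, and in U6 snRNP a ring of LSM proteins takes that place. SF3A and SF3B proteins belong to U2 snRNP, which binds the branch point, U2AF proteins recognise the end of the intron, and PRPF proteins act mostly in the tri-snRNP and in catalysis. SR proteins bind exons and generally favour their inclusion, while hnRNP proteins coat nascent RNA and often oppose or modulate splice site use. An oocyte stops transcribing before it matures, so mRNA up to the first cleavages is largely stored. In primates the major onset of embryonic transcription comes around the 8-cell stage. The libraries were primed on the poly(A) tails of mRNA. At the early stages a change in tail length therefore cannot be told apart from a change in the amount of an mRNA.

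Stage markers followed the labels: 9 of 9 oocyte genes were found and summed to 6285 to 6663 RPKM at GV and 12.8 to 35.6 at Mo and Bl. Libraries held an estimated 5.58 to 21.5 M reads, so that 1 read on 1 kb was worth 0.0465 to 0.179 RPKM; 8C library 2 was the shallowest. Mo library 2 stood apart, with 4277 entries at 1 RPKM or more against 6763 or more elsewhere, and with correlations of 0.740 and 0.745 to the other morulae, which correlated at 0.952 with each other. The 8C libraries correlated at 0.836. RPKM is relative to all mRNA of a library, and fewer cells of a type cannot be told apart from less RNA per cell. All changes below are on the log2(RPKM + 1) scale, and a call is an adjusted p under 0.05 in limma, a linear model fitted over the 22 libraries.

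The SR and hnRNP classes held a larger share of all RPKM from the 8-cell stage on than at the 4-cell stage (plot of class shares by library). The SR class held 0.0336 to 0.0434% of all RPKM at 4C, 0.217 and 0.155% at 8C, 0.152 to 0.206% at Mo and 0.105 and 0.147% at Bl. The hnRNP class held 0.109 to 0.160% at 4C and 0.445 and 0.447% at 8C. In both classes every library of 8C, Mo and Bl was above every 4C library. The hnRNP share was 0.276 and 0.440% at Bl, and 2C library 1, at 0.286%, was above Bl library 1. At Mo the hnRNP share was 0.353% and 0.496% in libraries 3 and 1 and 1.13% in library 2, so the stage mean of 0.659% became 0.425% without that library. In proportion, the snRNP share differed least between these stages, from 0.539 ± 0.0930% (SD, n = 3) at 4C to 0.841 ± 0.0788% (n = 2) at 8C. Its 8C mean was near that at GV, 0.826 ± 0.0217% (n = 2). The SR and hnRNP means at GV, 0.0565 and 0.127%, were below their 8C shares. For snRNP, Mo library 2, at 0.605%, was below the other morulae at 0.960 and 1.15%. Few genes carried each sum: 3 members made up 64.3% of the snRNP sum at 4C, with SNRPD1 alone at 39.4%, and 3 made up 78.9% of the SR sum at 8C, with SRSF3 alone at 51.0%.

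**Figure D1:**
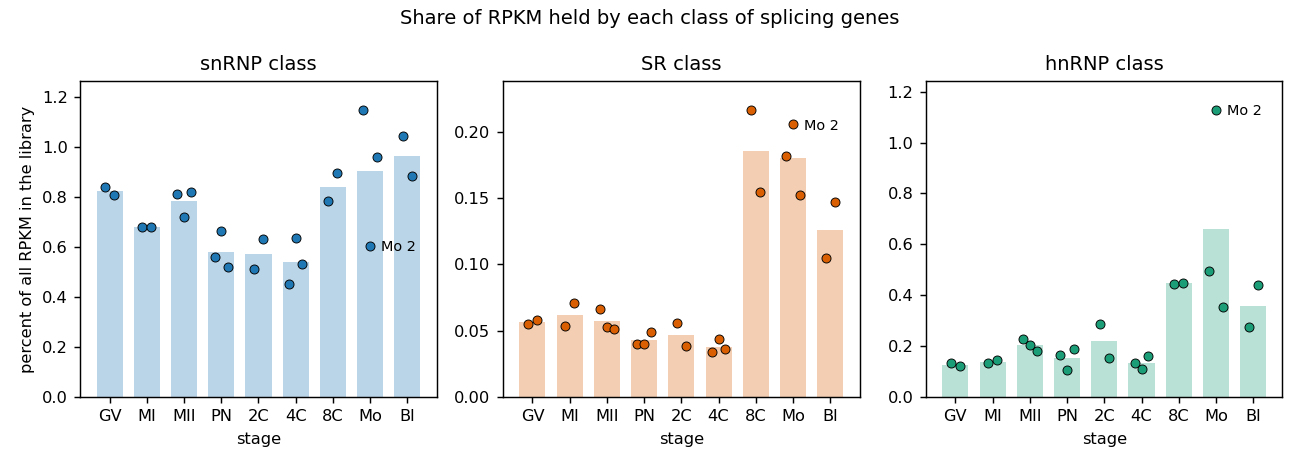
Percent of all RPKM in a library held by the snRNP, SR and hnRNP entries (y axis, linear from 0) at each stage (x axis). Points are libraries and bars are stage means. SR libraries stay below 0.071% up to 4C and are at 0.105% or more from 8C on, and Mo library 2 is lowest of its stage for snRNP and highest for SR and hnRNP.

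Over the 9 stages limma's F test called 57 of 74 tested members, against 68.3% of all 14312 entries: 31 of 42 in the snRNP class, 10 of 12 in the SR class and 16 of 20 in the hnRNP class. The mean was highest at 8C, Mo or Bl for 48 of 74 (64.9%), against 43.6% of all entries. That was so for 23 of 42 snRNP, 9 of 12 SR and 16 of 20 hnRNP entries. These counts include SRSF8, the HNRNPH1 entry IMMRNTR5677 and the SNRPB2 entry IMMRNTR4951. They reached 1 RPKM only in libraries of 8C, Mo or Bl, so their late maximum follows from the filter. Such entries were not taken out of the share of all entries either. At an oocyte stage the mean was highest for 16 snRNP, 3 SR and 2 hnRNP entries, and with median-of-ratios scaling, an alternative normalization, for 7, 3 and 0. Within the hnRNP class 11 of 20 were highest at Mo, against 7 without Mo library 2 and 15 with that scaling. Within the snRNP class 17 of 42 were highest at Bl, against 14 with either. Of the 74, 43 were at 1 RPKM or more in every library, and 1, the SNRPB2 entry described with the 8-cell stage, reached it in libraries of 1 stage only. The map of members by library shows both the late maxima and the departures of Mo library 2.

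**Figure D2:**
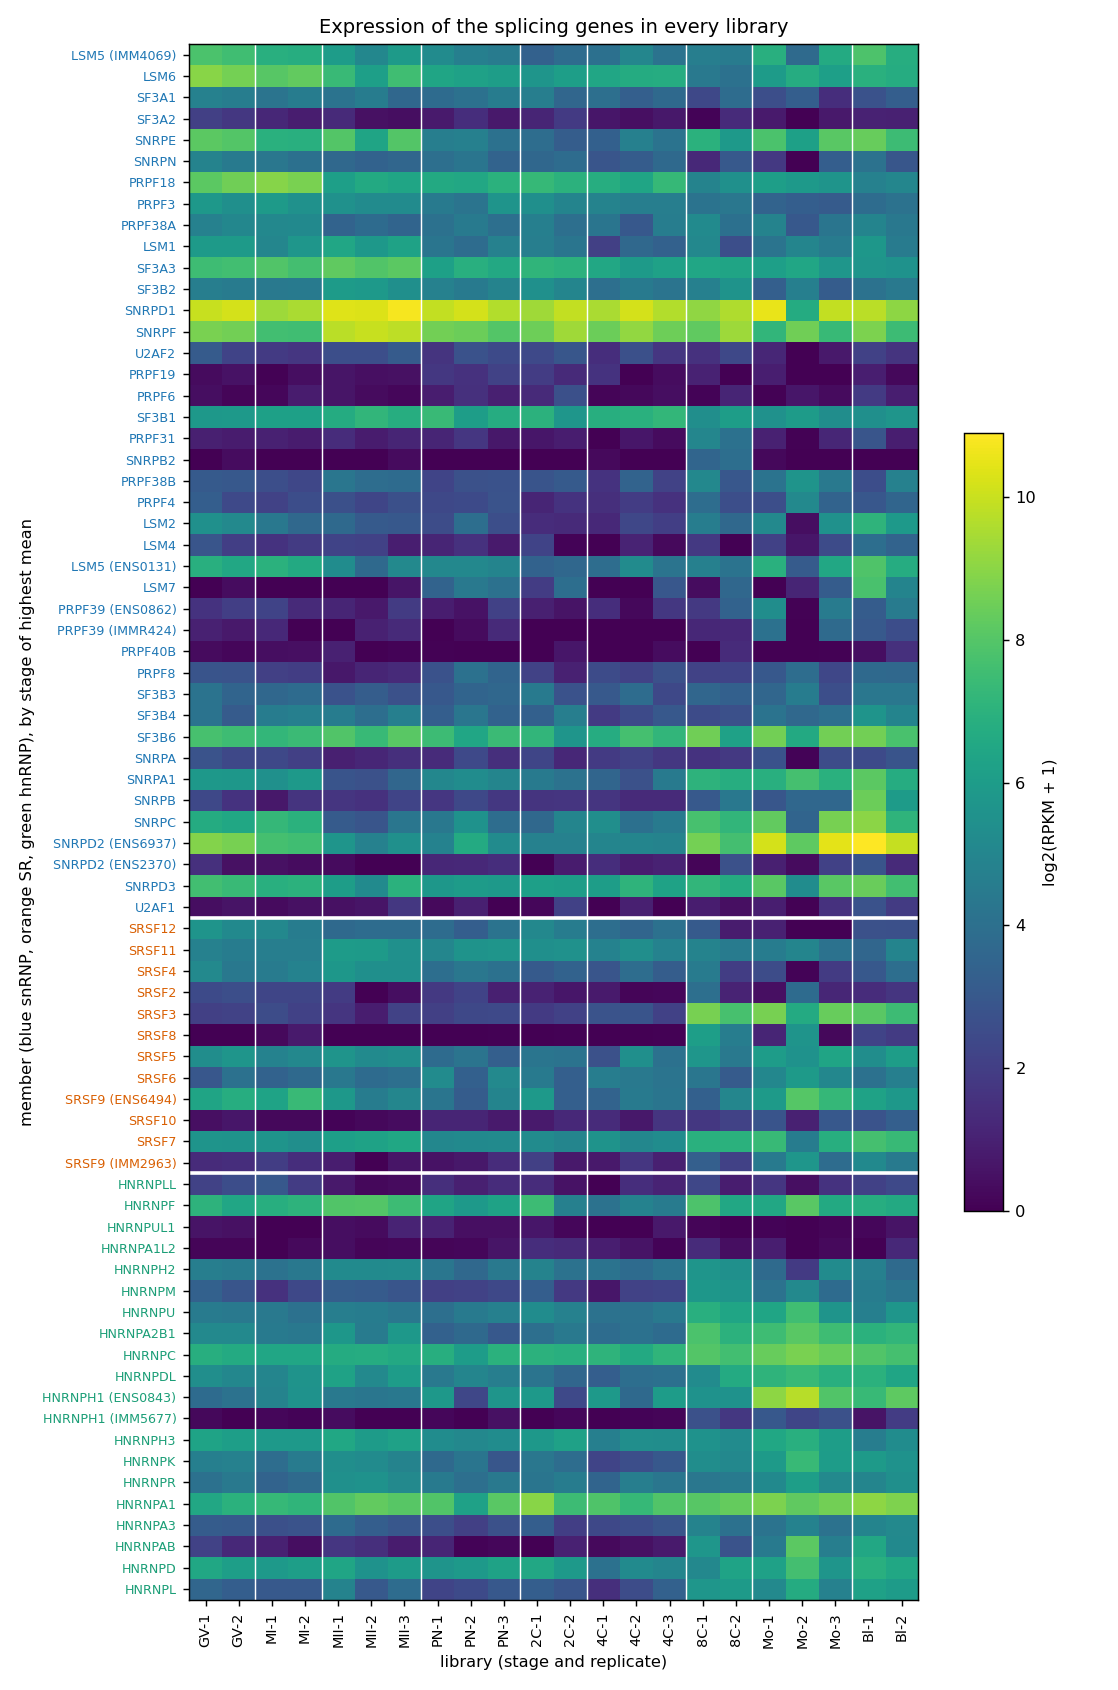
Log2(RPKM + 1) of each tested member but 1 (rows; blue names snRNP, orange SR, green hnRNP, sorted within a class by the stage of the highest mean) in each of the 22 libraries (columns, stage and replicate). SRSF3 and many but not all hnRNP rows brighten from 8C on, SNRPD1 and SNRPF are bright in nearly all columns, and the column of Mo library 2 is darker than its neighbours in many snRNP rows and brighter in many hnRNP rows.

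During maturation from GV to MII 6 of 74 members were lower, 5 of them in the snRNP class, and 0 were higher; of all entries 8.97% were lower and 0.342% higher, so the members' counts were near the background. SNRPD2, an Sm ring protein (chromosome 19, 52136331 to 52140699), was at 468 and 399.6 RPKM in the GV oocytes, 204 and 187 at MI and 49.8, 26.6 and 43.4 at MII. The MII libraries lay below all GV and MI libraries, and the GV to MII change was -3.45 ± 0.61 (SE, limma adjusted p = 0.00203). SNRPA1, the U2 snRNP protein A′, was at 55 and 53.8 RPKM at GV, 43.6 and 59.5 at MI and 6.05, 5.53 and 11.2 at MII. Its MII libraries again lay below the others, with a change of -2.75 ± 0.52 (SE, limma adjusted p = 0.00316); adjusted p up to 0.0518 without GV library 1. PRPF18, which acts in the second step of splicing, was higher at MI (482 and 422 RPKM) than at GV (286 and 367) without a call, and dropped to 70.9, 98 and 84.2 at MII. Its change was -1.94 ± 0.38 (SE, limma adjusted p = 0.00375); adjusted p up to 0.0592 without GV library 2. The classes' medians were -0.29 for snRNP, -0.22 for SR and 0.16 for hnRNP, beside -0.19 over all entries. LSM6, of the LSM ring, HNRNPLL, an RNA-binding relative of HNRNPL, and PRPF8, the scaffold of the catalytic core, were the other calls and were chosen after their values were seen. LSM6 went from 495 and 396 RPKM to 164, 70.2 and 185 (adjusted p up to 0.153 without GV library 1 or 2 or MII library 2 or with median-of-ratios scaling), and PRPF8 from 6.07 and 5.95 to 0.635, 1.17 and 1.48 (adjusted p up to 0.199 without GV library 1 or 2 or MII library 1 or 2 or with median-of-ratios scaling). HNRNPLL went from 3.39 and 4.93 RPKM to 0.653, 0.169 and 0.235 (adjusted p up to 0.21 without GV library 1 or 2 or MII library 2 or 3, with median-of-ratios scaling or with a pseudocount of 0.1). Without GV library 1 or 2 there were 2 lower calls, without MII library 2 there were 3, and without Mo library 2 3 higher and 13 lower.

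The step from MI to MII, which shares its MII libraries with the comparison above, held 2 higher and 5 lower calls of 74, against 1.49% and 6.99% of all entries. With median-of-ratios scaling the split was 2 higher and 2 lower, and from GV to MII it was 1 and 3. SNRPF, another Sm ring protein, was higher at MII: 414 and 384 RPKM at GV, 191 and 188 at MI and 884, 1006 and 890.3 at MII, a change from MI of 2.28 ± 0.49 (SE, limma adjusted p = 0.00694); adjusted p up to 0.0792 without MI library 1 or 2. The 3 MII libraries were above all other libraries of the series for this gene. HNRNPR, an hnRNP of the R and Q type, went from 10.2 and 12.7 to 43.9, 46.6 and 33.6 RPKM (1.76 ± 0.44, adjusted p = 0.0173; adjusted p up to 0.177 without MI library 1 or 2 or MII library 1 or 2). SNRPC, the U1 snRNP protein C that helps U1 bind the start of the intron, was at 150.3 and 125 RPKM at MI and 7.64, 6.23 and 18.5 at MII (-3.69 ± 1.06, adjusted p = 0.037; adjusted p up to 0.22 without MI library 1 or 2 or MII library 1 or 2, with median-of-ratios scaling, with no filter or with a pseudocount of 0.1). PRPF18 (-2.42 ± 0.38, adjusted p = 7.52e-04) held its call in every alternative, and SNRPA1 did not (-2.65 ± 0.52, adjusted p = 0.00421; adjusted p up to 0.0743 without MI library 2). SNRPD2 (adjusted p up to 0.177 without MI library 1 or 2 or MII library 2 or with median-of-ratios scaling) and HNRNPLL (adjusted p up to 0.293 without MI library 1 or 2 or MII library 2 or 3, with median-of-ratios scaling or with a pseudocount of 0.1) were the other lower calls. The step had 2 lower calls without MI library 1, 1 without MI library 2, 1 higher and 2 lower without MII library 2, and 4 higher and 8 lower without Mo library 2. From GV to MI limma called 0 of 74 members, with 0 at an unadjusted p under 0.05; 0.587% of all entries were called. A fit of those stages alone called 4, all lower.

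Between MII and PN, a step across which the source also changed, 3 members were higher and 7 lower, against 4.76% and 2.91% of all entries. The hnRNP class had the lowest median, -0.87, with 5 of 20 entries above 0, beside 0.06 over all entries. HNRNPA2B1, which packages nascent RNA and takes part in its export and splicing, was at 52.8, 22.4 and 55.4 RPKM at MII and 9.44, 12.3 and 6.96 at PN, a change of -2.0 ± 0.39 (SE, limma adjusted p = 0.00398). HNRNPK, which binds C-rich RNA, went from 41.1, 37.5 and 28.4 to 12, 18.1 and 6.48 (-1.56 ± 0.44, adjusted p = 0.0358; adjusted p up to 0.159 without MII library 1, 2 or 3 or PN library 1 or 3, with median-of-ratios scaling, with no filter or with a pseudocount of 0.1). For both genes the PN libraries lay below the MII libraries.

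In the snRNP class SNRPE, an Sm ring protein, was at 254, 80.3 and 255 RPKM at MII and 24.6, 25.6 and 15.9 at PN (-2.95 ± 0.55, limma adjusted p = 0.0028). SF3A3, a U2 snRNP subunit, was at 298, 242 and 280.4 and 72.5, 118 and 95.4 (-1.53 ± 0.32, adjusted p = 0.00626). Both pairs of groups were apart, and both calls held in every alternative. LSM1, which belongs to the cytoplasmic LSM ring of mRNA decay rather than to U6 snRNP, was at 87.5, 55.4 and 77.3 and 17.9, 13.6 and 26.7 (-1.89 ± 0.56, adjusted p = 0.0457; adjusted p up to 0.158 without MII library 1, 2 or 3 or PN library 1, 2 or 3, with median-of-ratios scaling, with no filter or with a pseudocount of 0.1). SNRPA1, which had been low at MII, was at 32, 38.8 and 30.1 RPKM at PN (2.06 ± 0.47, adjusted p = 0.00995). PRPF8 was at 0.635, 1.17 and 1.48 at MII and 5.66, 15.6 and 10.5 at PN (2.39 ± 0.45, adjusted p = 0.00267), so that its PN libraries were above all MII libraries. LSM7, of the LSM ring, was at 0, 0 and 0.553 and 10.2, 20.4 and 15.6 (3.77 ± 0.95, adjusted p = 0.0201; adjusted p up to 0.0774 without MII library 1 or 2 or PN library 2 or 3 or with median-of-ratios scaling), and it was at 0, 0 and 6.71 at 4C. SNRPF was also lower (-1.53 ± 0.44, adjusted p = 0.0374; adjusted p up to 0.13 without MII library 1, 2 or 3 or PN library 1, 2 or 3, with median-of-ratios scaling or with no filter). The step had 2 higher and 3 lower calls with median-of-ratios scaling and without MII library 1, MII library 2 or PN library 3, 3 and 3 without PN library 1, and 4 and 13 without Mo library 2.

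From PN to 2C and from 2C to 4C limma called 0 of 74 members, with 2 and 12 at an unadjusted p under 0.05; 0.468% and 0.573% of all entries were called. Without 2C library 1 the second step had 1 lower call. Single libraries differed widely in these stages. HNRNPH1, which binds G-rich RNA, was at 55.3, 3.97 and 50.8 RPKM at PN, 56.5 and 4.29 at 2C and 56.3, 12.2 and 64.3 at 4C: in each of these stages 1 library was far below the others.

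Between 4C and 8C the hnRNP class moved most. Of its 20 tested entries 10 were higher and 0 lower, with a median of 1.68, while the SR class had 3 higher and 1 lower of 12 (median 0.87) and the snRNP class 7 higher and 3 lower of 42 (median 0.34), 1 of the 7 being an entry that passed the filter only through its 8C values. Over all members 20 of 74 were higher and 4 lower, against 13.9% and 10.2% of all entries, whose median was 0. The 10 hnRNP entries have 10 different symbols, and 19 of 20 hnRNP entries had a change above 0. For HNRNPH1 the call was that of the entry IMMRNTR5677, at 5.61 and 2.4 RPKM at 8C. The main HNRNPH1 entry was at 56.3, 12.2 and 64.3 at 4C and 46 and 46.6 at 8C, without a call. IMMRNTR5677 and SRSF8, of the SR class, passed the filter only through libraries of 8C, Mo and Bl. Without 8C library 1 there were 14 higher and 2 lower calls among all members. The markers of genome activation summed to 0 to 18.7 RPKM in the libraries up to 4C and to 7074 and 5527 at 8C, and those of oocytes to 2635 to 2892 at 4C and 592 to 622 at 8C; what either has to do with the splicing genes was not tested.

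SRSF3, a small SR protein that acts in splicing and in mRNA export (chromosome 4, 36347672 to 36358539), showed the greatest change of the SR class. It was at 0.811 to 6.09 RPKM in the 15 libraries up to 4C, with 5.88, 6.09 and 3.28 at 4C, and at 408 and 211 at 8C, 409.5, 101 and 333 at Mo and 275 and 177 at Bl. Every library from 8C on was far above every earlier one, and the 4C to 8C change was 5.63 ± 0.55 (SE, limma adjusted p = 4.67e-07). SRSF8, an intronless relative of SRSF2, was at 0.725 RPKM or below in every library up to 4C and at 68.9 and 23.9 at 8C (5.37 ± 0.94, limma adjusted p = 3.23e-04). It passed the filter only through libraries of 8C, Mo and Bl, so a difference in this direction follows from the filter. At Mo it was at 1.17, 48.7 and 0.189 and at Bl at 3.54 and 2.77, so that among the morulae only library 2 kept a value in the range of 8C. SRSF7, which carries a zinc knuckle, went from 47, 31.6 and 38.8 to 120.0 and 125 RPKM (1.64 ± 0.56, adjusted p = 0.0377; adjusted p up to 0.128 without 4C library 1, 2 or 3 or 8C library 1 or 2 or with no filter). SRSF12 went the other way, from 14.4, 10.6 and 15.8 at 4C to 7.46 and 0.776 at 8C and 1.02, 0 and 0 at Mo (-1.89 ± 0.54, adjusted p = 0.0154; adjusted p up to 0.356 without 8C library 2, with a pseudocount of 0.1 or in a fit of these stages alone). It had been at 48.4 and 35.5 at GV and was at 5.57 and 5.33 at Bl.

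In the hnRNP class HNRNPM, which often silences exons, went from 0.558, 3.41 and 3.68 RPKM at 4C to 53.9 and 48.6 at 8C (4.04 ± 0.55, limma adjusted p = 2.43e-05). HNRNPA2B1 went from 13.3, 15.5 and 13 to 223 and 127 (3.51 ± 0.44, limma adjusted p = 9.74e-06). For both, the 8C libraries were above every earlier library, that is, above the oocytes as well as the 4-cell embryos. HNRNPU, a nuclear scaffold protein, went from 16.1, 16.4 and 20.1 to 118 and 84.3 (2.45 ± 0.49, adjusted p = 0.0011), and HNRNPK from 3.76, 5.18 and 7.05 to 39.2 and 32.9 (2.58 ± 0.49, adjusted p = 6.95e-04). HNRNPL, which binds CA repeats, went from 1.79, 4.87 and 9.49 to 52.4 and 60.9 (3.37 ± 0.62, adjusted p = 4.90e-04). These calls held in every alternative, whereas that of HNRNPAB did not: it went from 0.194, 0.392 and 0.709 to 52.5 and 5.84 RPKM (3.76 ± 0.91, adjusted p = 0.00494; adjusted p up to 0.15 without 8C library 1). The 8C libraries differed widely for this gene. Abundant members had no call in this step: HNRNPA1 was at 235, 159 and 245 at 4C and 267 and 316 at 8C, and HNRNPC, which binds U tracts, at 136, 97 and 140.2 and 255 and 192. The other higher calls, chosen after their values were seen, were HNRNPDL, HNRNPF, HNRNPA3 and an HNRNPH1 entry (IMMRNTR5677). Their changes were 2.23, 2.7, 1.85 and 2.15; HNRNPDL lost its call without 8C library 2 (adjusted p = 0.0602), and HNRNPF and HNRNPA3 without 8C library 1 (adjusted p = 0.0857 and 0.0862).

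**Figure D3:**
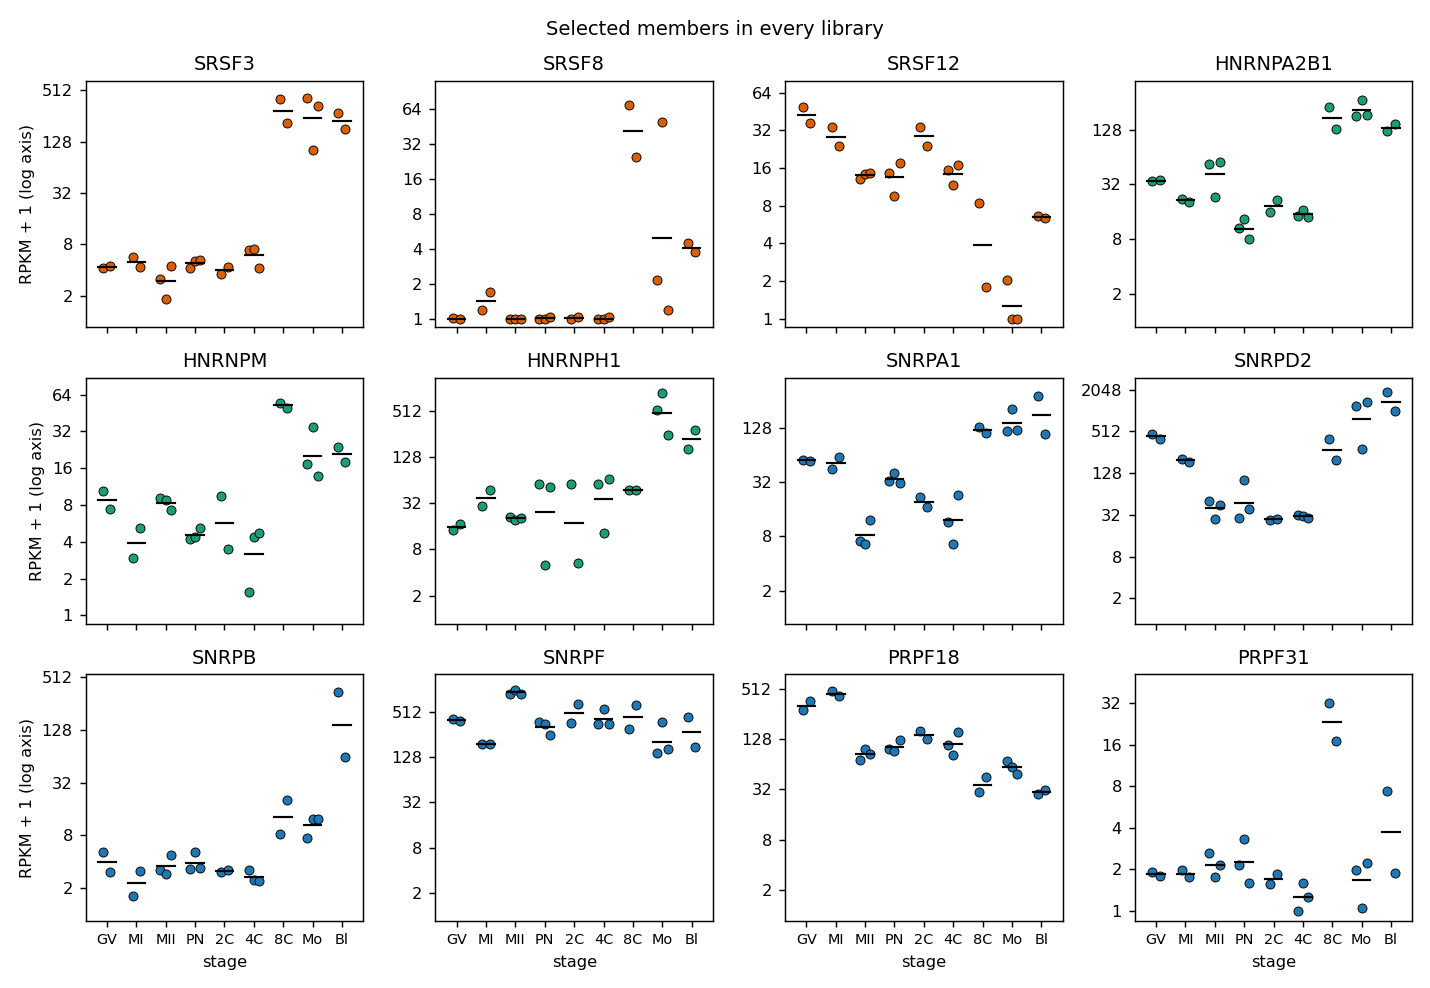
RPKM + 1 (y axis, log scale) of 12 members in every library, by stage (x axis); orange is SR, green hnRNP and blue snRNP, and bars are the stage means of log2(RPKM + 1). SRSF3 steps up at 8C and stays up, PRPF31 and SRSF8 are high at 8C, HNRNPH1 follows at Mo and SNRPB at Bl, while PRPF18 and SRSF12 are highest in oocytes.

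In the snRNP class 5 of the 12 SNRP entries were called higher at 8C, 2 of 13 PRPF entries and 0 of 7 LSM and 8 SF3 entries. One of the SNRP calls is an entry that passed the filter only through its 8C values, and without it the count is 4 of 11. SNRPA1 went from 10.6, 5.6 and 21.8 RPKM to 131 and 109 (3.32 ± 0.52, limma adjusted p = 1.06e-04), and SNRPD2 from 30.5, 30.04 and 28.2 to 391 and 197 (3.19 ± 0.61, limma adjusted p = 7.33e-04). At 8C SNRPA1 was above its GV libraries, while SNRPD2 was still below them. PRPF31, which holds U4/U6 and U5 snRNPs together (chromosome 19, 60205103 to 60224334), was at 0, 0.584 and 0.26 at 4C, 31.3 and 15.9 at 8C, 0.982, 0.046 and 1.23 at Mo and 6.34 and 0.869 at Bl. Its 8C libraries exceeded every other library of the series, with changes of 4.22 ± 0.52, adjusted p = 7.60e-06 into 8C and -3.81 ± 0.52, adjusted p = 1.98e-05 out of it. An overlapping entry, TFPT, shares 209 bp with it and was at 0 to 2.07 RPKM. An entry named SNRPB2 (IMMRNTR4951) was likewise at 10.6 and 14.5 RPKM at 8C and at 0.284 or below elsewhere (3.66 ± 0.24, adjusted p = 2.28e-09). It entered the test only through its 8C values, so its difference follows from the filter, and its name could not be checked. Another entry, on chromosome 10, is named SNRPB2 only in a further name column and is not a member. Its mean was 210 RPKM at 4C and 216 at 8C, without a call.

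Fewer snRNP members were lower at 8C. LSM6 went from 86, 105 and 106 RPKM to 20.3 and 15.6 (-2.4 ± 0.42, limma adjusted p = 3.24e-04). PRPF18 went from 108, 83.1 and 157 to 28.5 and 43.7 (-1.64 ± 0.38, adjusted p = 0.00353; adjusted p up to 0.0557 without 8C library 1). SF3B1, the branch point subunit of U2 snRNP, went from 112, 122 and 149.7 to 40.3 and 65.9 (-1.28 ± 0.46, adjusted p = 0.0473; adjusted p up to 0.302 without 4C library 1, 2 or 3 or 8C library 1, with median-of-ratios scaling, with no filter or with a pseudocount of 0.1). In each case the 8C libraries lay below the 4C libraries.

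From 8C to Mo 6 members were higher and 6 lower, against 5.39% and 20.0% of all entries, whose median was -0.38. With median-of-ratios scaling 14 were higher and 3 lower and the median of all entries was -0.25, so the balance of the members here depends on the normalization. A fit of these 2 stages alone called 1 higher and 2 lower. HNRNPH1 went from 46 and 46.6 RPKM to 526, 858 and 248 (3.35 ± 0.98, limma adjusted p = 0.0165; adjusted p up to 0.0769 without 8C library 1 or 2). Every Mo library was above every earlier library. SRSF9, an SR protein with a short RS domain, went from 9.0 and 30.8 to 60.9, 258 and 151 in its main entry (2.92 ± 0.76, adjusted p = 0.0079; adjusted p up to 0.132 without 8C library 1 or in a fit of these stages alone). A second SRSF9 entry (IMMRNTR2963), which overlaps the first by 2861 bp, went from 8.96 and 3.31 to 21, 52.2 and 13.6 (1.98 ± 0.58, adjusted p = 0.0161; adjusted p up to 0.206 without 8C library 2 or Mo library 2, with a pseudocount of 0.1 or in a fit of these stages alone). SRSF6 went from 18.5 and 7.64 to 32.3, 61.3 and 32.4 (1.66 ± 0.59, adjusted p = 0.0462; adjusted p up to 0.356 without 8C library 2 or Mo library 2 or 3, with no filter, with a pseudocount of 0.1 or in a fit of these stages alone). All 3 SRSF entries were highest in Mo library 2.

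LSM6 went back up, from 20.3 and 15.6 to 62, 108 and 69.3 (2.06 ± 0.42, adjusted p = 0.00121; adjusted p up to 0.0805 in a fit of these stages alone). Lower were SF3B2 (26.1 and 47.4 to 8.99, 25.4 and 7.96 RPKM; adjusted p up to 0.305 without 8C library 2 or Mo library 1 or 3, with median-of-ratios scaling or in a fit of these stages alone) and HNRNPH2 (49.9 and 43.9 to 12.6, 2.58 and 37.8; adjusted p up to 0.295 without 8C library 1 or 2 or Mo library 2, with median-of-ratios scaling, with no filter or in a fit of these stages alone). The other lower calls, with values given above, were PRPF31, the SNRPB2 entry, SRSF8 (adjusted p up to 0.286 without 8C library 1 or Mo library 1 or 3, with median-of-ratios scaling or in a fit of these stages alone) and SRSF12 (adjusted p up to 0.626 without 8C library 1 or Mo library 2 or 3 or in a fit of these stages alone). The SNRPB2 entry passed the filter only through its 8C values, so its call in this step also follows from the filter. Without Mo library 2 the step had 10 higher and 6 lower calls.

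Mo library 2 departed from the other morulae in both directions within each class. It was the lowest morula in 21 and the highest in 13 of 42 snRNP entries, in 5 and 6 of 12 SR entries, and in 6 and 14 of 20 hnRNP entries. SNRPC was at 313, 10.6 and 405 RPKM at Mo, SNRPD1 at 1507, 102 and 956, LSM2 at 33.7, 0.31 and 45 and SRSF7 at 162, 22.9 and 113: library 2 was far the lowest in each. HNRNPAB was at 21.6, 286 and 24.2, HNRNPK at 61.1, 162 and 64.5 and HNRNPD at 74.4, 201 and 50.3, with library 2 the highest. These 7 genes were chosen after their values were seen.

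From Mo to Bl 3 members were higher and 3 lower, against 12.0% and 2.12% of all entries, whose median was 0.23. With median-of-ratios scaling the split was 3 and 6, the members' median went from 0.47 to -0.03, and that of all entries was 0.07; in a fit of the 2 stages alone 0 were called. Without Bl library 1 there were 2 higher calls, without Mo library 1 8 higher and 2 lower, and without Mo library 3 7 and 3. SNRPB, the Sm ring protein B (chromosome 10, 35770102 to 35778988), was at 4.19 RPKM or below in every library up to 4C, 7.24 and 19.5 at 8C, 6.58, 11.3 and 11.4 at Mo and 345 and 61.6 at Bl. Both blastocysts were above every other library but differed from each other over 5-fold, and the Mo to Bl change was 3.81 ± 0.6 (SE, limma adjusted p = 2.10e-04); adjusted p up to 0.0768 in a fit of these stages alone. LSM7 was at 0, 1.18 and 8.1 at Mo and 215 and 29.5 at Bl (4.91 ± 1.07, adjusted p = 0.0039; adjusted p up to 0.117 without Bl library 1 or in a fit of these stages alone). Lower in the blastocyst was HNRNPH3, an hnRNP of the H and F type, at 88.4, 115 and 65.5 and 23.2 and 38.8 RPKM (-1.51 ± 0.39, adjusted p = 0.0132; adjusted p up to 0.303 without Bl library 1 or in a fit of these stages alone). Further calls, chosen after their values were seen, were SRSF12, higher (2.35 ± 0.54, adjusted p = 0.0062; adjusted p up to 0.0889 without Bl library 1 or in a fit of these stages alone), and the HNRNPH1 entry IMMRNTR5677, lower (-1.39 ± 0.39, adjusted p = 0.0201; adjusted p up to 0.409 without Bl library 1 or Mo library 1, with a pseudocount of 0.1 or in a fit of these stages alone).

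The change from 4C to Bl, which shares its 4C libraries with the step to 8C and its Bl libraries with the step from Mo, summed up the later stages. Of 74 members 36 were higher and 2 lower, against 20.5% and 18.4% of all entries, whose median was 0. Higher were 18 of 42 snRNP, 6 of 12 SR and 12 of 20 hnRNP entries, with medians of 1.17, 1.72 and 1.67, and the 2 lower were PRPF18 and SF3B1. The hnRNP count includes the HNRNPH1 entry IMMRNTR5677, which passed the filter only through libraries of 8C, Mo and Bl. Among the families, 6 of 7 LSM entries and 5 of 12 SNRP entries were higher, 5 of 13 PRPF entries and 1 of 8 SF3 entries.

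The greatest changes were those of SNRPB (5.78 ± 0.6, limma adjusted p = 4.90e-07), SNRPD2 (5.5 ± 0.61, adjusted p = 1.14e-06) and LSM7 (5.36 ± 1.07, adjusted p = 5.51e-04) in the snRNP class, SRSF3 (5.22 ± 0.55, adjusted p = 6.37e-07), the second SRSF9 entry (3.67 ± 0.58, adjusted p = 5.54e-05) and SRSF7 (2.21 ± 0.56, adjusted p = 0.00385) in the SR class, and HNRNPAB (5.35 ± 0.91, adjusted p = 1.23e-04), HNRNPL (3.65 ± 0.62, adjusted p = 1.20e-04) and HNRNPA2B1 (3.17 ± 0.44, adjusted p = 1.39e-05) in the hnRNP class. These 9 calls held in every alternative. HNRNPL was at 75.1 and 62.8 RPKM in the blastocysts and HNRNPAB at 91 and 35.4, above all libraries before 8C. PRPF18 ended at 27 and 30.8 RPKM (-1.92 ± 0.38, adjusted p = 5.02e-04) and SF3B1 at 41.6 and 49.7 (-1.46 ± 0.46, adjusted p = 0.0159; adjusted p up to 0.101 without 4C library 3 or Bl library 1). Of the 38 calls, 18 were lost when some library was left out, and without Bl library 1 there were 23 higher and 1 lower.

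**Figure D4:**
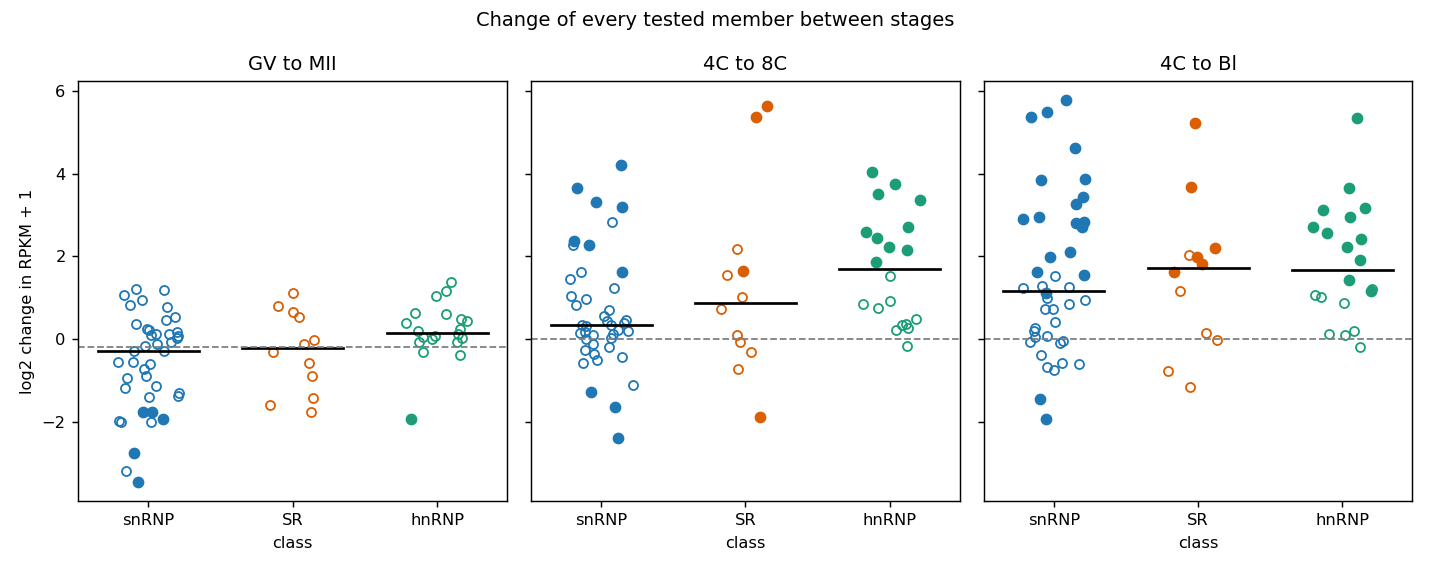
Log2 change of RPKM + 1 (y axis) of each of the 74 tested members in 3 comparisons, by class (x axis); filled points were called by limma, open ones were not, black bars are class medians and the dashed line is the median of all 14312 entries. Filled points lie below 0 from GV to MII, and nearly all lie above it from 4C to Bl (36 above, 2 below).

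The genes of a single complex had very different RPKM. RPKM is scaled to length, but the counter and annotation are not given, and counting may divide reads among near-identical copies. Levels of different genes can therefore be set side by side only roughly. Among 6 tested Sm ring genes, SNRPD1 had the highest and SNRPB the lowest mean at every stage up to 8C. At 4C the means were 905 ± 247 and 1.71 ± 0.426 RPKM (SD, n = 3), a ratio of 530 to 1. At Bl SNRPD2 had the highest mean, 1452 ± 647 (n = 2), and SNRPB still the lowest, 203 ± 200.2, a ratio of means of 7.15. By library the ratio of SNRPD2 to SNRPB was 5.54 and 16.1. SNRPB was the lowest of the 6 only in Bl library 2. In Bl library 1 it was at 345 RPKM, above SNRPE at 326 and SNRPD3 at 338. SNRPD1 was called in no comparison: it was between 529 and 1709 RPKM in 21 libraries and at 102 in Mo library 2. SNRPD3 was also called in none and was at 179 ± 16.8 RPKM at GV, 57.8 ± 4.29 at PN and 265 ± 103 at Bl. SNRPE, by contrast, was at 13.7 and 8.3 RPKM at 2C, 125 and 57.9 at 8C (2.36 ± 0.62, adjusted p = 0.00865; adjusted p up to 0.125 without 8C library 1) and 326 and 176 at Bl. SNRPN, a tissue-restricted counterpart of SNRPB, was at 25.2 ± 4.87 at GV and 11.5 ± 7.05 at Bl, and so was above SNRPB before 8C and below it at Bl; SNRPG was not analysed here.

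Among the 6 tested LSM genes, which include LSM1 of the decay ring, LSM6 had the highest mean at every stage up to 4C, and LSM5 at 8C and Bl. At Mo LSM6 was highest of the 6 through library 2 alone: it was at 62, 108 and 69.3 RPKM there, and the chromosome 6 entry of LSM5 at 119, 7.63 and 90.8. LSM3, matched only by a further name column, is not among the 6 but had a higher mean than any of them at every stage. Its means were 1391 RPKM at GV, 226 at 4C and 420 at Bl, against 445 and 98.9 for LSM6 at GV and 4C. For LSM5 the mean at Bl was 174, taking the higher of its 2 entries in each library. LSM4 was at 6.4 and 3.12 RPKM at GV, 0, 1.1 and 0.196 at 4C and 14.5 and 10.2 at Bl (3.28 ± 0.68, adjusted p = 7.46e-04). LSM2 was at 42.9 and 33.9 at GV, 1.62 and 1.43 at 2C and 133 and 58.2 at Bl (4.61 ± 1.0, adjusted p = 0.00117). Both genes were higher in the 2 blastocysts than in any other library. LSM1 was at 3.19, 11.7 and 9.36 at 4C and 52.8 and 22.4 at Bl (adjusted p up to 0.169 without 4C library 1 or Bl library 1). LSM5 has 2 entries, on chromosome 6 and on chromosome 3 (IMMRNTR4069), whose values were close in most libraries (r = 0.945 across 22 libraries, log2 scale, a description); counting may divide reads among near-identical copies, so the count of 6 LSM entries higher from 4C to Bl holds this gene 2 times. LSM8 was not analysed here.

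**Figure D5:**
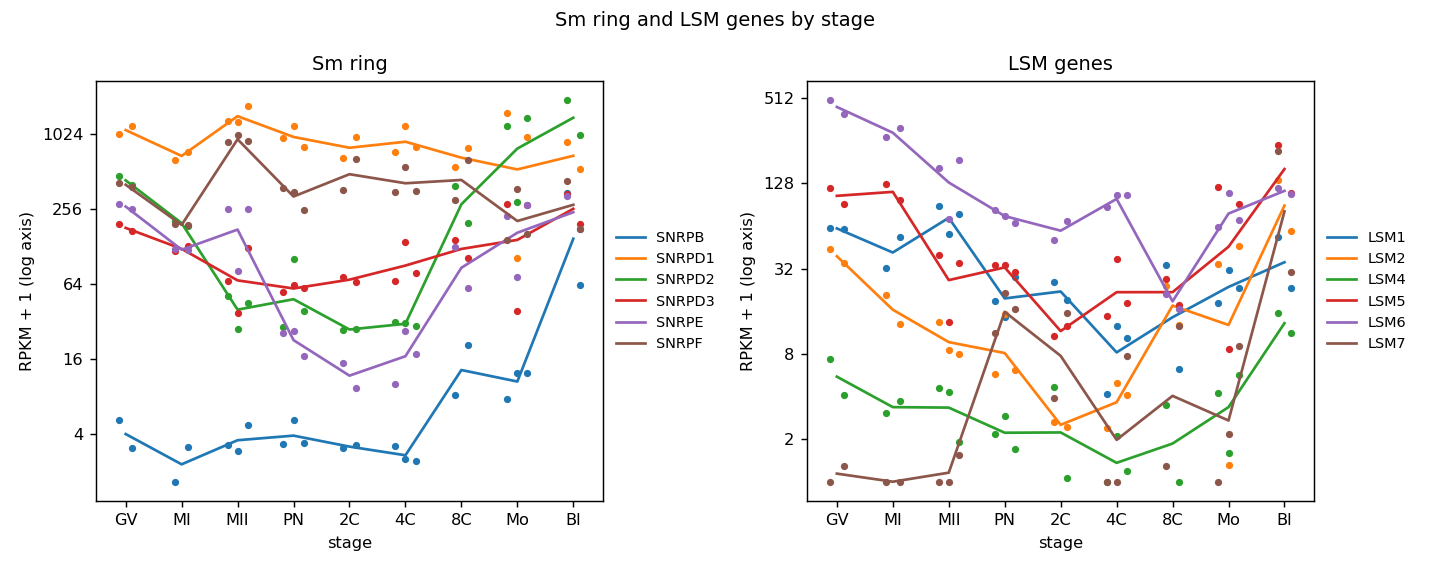
RPKM + 1 (y axis, log scale) of 6 Sm ring genes (left) and 6 LSM genes (right) by stage (x axis); points are libraries and lines join the stage means of log2(RPKM + 1). The Sm ring genes lie far apart up to 4C and draw together by Bl, where SNRPB has risen and SNRPD2 is highest; LSM7 is near 0 in oocytes and at 29.5 and 215 RPKM at Bl.

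The rest of the panel had few calls. The U1 protein gene SNRPA was at 0.061 to 6.13 RPKM over the 22 libraries and SF3A1, of U2 snRNP, at 1.68 to 26.5, both without a call between stages. The U2AF genes, whose products recognise the 3′ splice site, were low: U2AF2 was at 0 to 7.73 and U2AF1 at 0 to 5.67, the latter with 0, 0.949 and 0 at 4C and 5.67 and 2.72 at Bl (2.0 ± 0.56, adjusted p = 0.00843; adjusted p up to 0.114 without Bl library 1). PRPF8 was at 0.635 to 15.6, with its maximum in a pronuclear embryo. Among the SR genes SRSF4 was at 54.2, 42.1 and 42.7 RPKM at MII and 7.01 and 14.3 at Bl, SRSF11 at 61.8, 59.8 and 44 and 11.1 and 28.8, and neither was called in a comparison. SRSF5 went from 5.42, 42.1 and 15.8 at 4C to 39.2 and 65.2 at Bl, with overlapping libraries (adjusted p up to 0.237 without 4C library 1 or 3 or Bl library 1 or 2, with no filter or in a fit of these stages alone). SRSF10, an SR-like protein that represses splicing when dephosphorylated, is represented by IMMRNTR1696, at 1.55, 0.612 and 2.21 at 4C and 5.95 and 8.84 at Bl (1.81 ± 0.49, adjusted p = 0.00624; adjusted p up to 0.0644 without Bl library 2). SRSF1 was not analysed here.

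Of the 74, 22 were called in no comparison of 2 stages: 15 snRNP, 3 SR and 4 hnRNP entries. A miss is not evidence of a steady level, since stages had 2 or 3 libraries. The 9 entries that matched but were not tested were SRSF10 (IMMRNTR708), HNRNPA0, HNRNPA1L2 (IMMRNTR6390), HNRNPK (IMMRNTR2385), HNRNPR (IMMRNTR2088), LSM4 (IMMRNTR1329), SF3B3 (IMMRNTR4156) and 2 SNRPN entries. All were below 1 RPKM in every library except the HNRNPK entry, at 5.74 in 2C library 2. The span of 27 of the 74 overlaps another entry, and the library kit did not mark strand, so strand could not separate reads there. HNRNPU shares 2560 bp with COX20, at 1.01 to 286 RPKM (r = -0.636, log2 scale). HNRNPA2B1 shares 450 bp with CBX3, at 0.567 to 57 RPKM (r = 0.805). What such overlaps add to the members' values was not tested.

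A further name column of the table matches the same pattern for 5 entries whose symbol does not, so they were not counted as members, and they were chosen after the values were seen. An entry named SRSF2 there, at 350 bp overlap with the SRSF2 member, was at 1.07, 1.66 and 1.76 RPKM at 4C, 59.8 and 46.4 at 8C and 96.7, 683 and 98.8 at Mo, a 4C to 8C change of 4.44 ± 0.73 (SE, limma adjusted p = 1.76e-04); the member itself was at 15 and 1.14 at 8C. SF3B5, a small U2 snRNP subunit, was at 86.3 and 90.9 at GV, 12.1, 10.01 and 5.71 at 4C and 215 and 148 at 8C (4.18 ± 0.97, limma adjusted p = 0.00361). In both genes the 8C libraries were above the 4C libraries. LSM3 was at 1413 and 1369 at GV and 346, 189 and 381 at MII (-2.25 ± 0.43, limma adjusted p = 0.00339). Its MII libraries were far below its GV libraries. A chromosome 10 entry named SNRPB2, of U2 snRNP, was at 106 and 100.4 at MI and 266, 296 and 295 at MII (1.46 ± 0.44, limma adjusted p = 0.0458), while HNRNPUL2 was called in no comparison. With these 5 the counts were 22 higher and 4 lower of 79 from 4C to 8C, and 38 and 2 from 4C to Bl.

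Partners of the spliceosome were counted from 6 lists of 112 genes that are not members, of which 101 entries were tested. From 4C to 8C 26.7% were higher and 9.90% lower, beside 13.9% and 10.2% of all entries. From 4C to Bl the shares were 30.7% and 16.8%, beside 20.5% and 18.4%. From 8C to Mo (5.94% and 16.8%) and from GV to MII (0% and 6.93%) they were near those of all entries (5.39% and 20.0%, and 0.342% and 8.97%). The exon junction complex, deposited on mRNA by splicing, had 5 of 9 entries higher at 8C and 0 lower. Its core subunit RBM8A went from 29.1 ± 5.07 to 1080.0 ± 577 RPKM, adjusted p = 1.20e-06, and CASC3 from 0.225 ± 0.337 to 13.4 ± 2.06 RPKM, adjusted p = 2.00e-05. Of 15 entries for snRNP assembly 4 were higher and 0 lower: SNUPN, which carries snRNPs into the nucleus, went from 1.48 ± 2.08 to 129 ± 16.7 RPKM, adjusted p = 3.60e-05, and TGS1, which trimethylates the snRNA cap, from 0.197 ± 0.106 to 20.6 ± 1.04 RPKM, adjusted p = 3.58e-06. From 8C to Mo SNUPN went from 129 ± 16.7 to 12.7 ± 11.9 RPKM, adjusted p = 0.00193, while TGS1 went further up, from 20.6 ± 1.04 to 72 ± 40.2 RPKM, adjusted p = 0.018.

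Of 13 SR kinases and SR-related proteins 4 were higher at 8C and 1 lower. TRA2B, an SR-like splicing activator, went from 2.11 ± 1.23 to 70.9 ± 10.8 RPKM, adjusted p = 3.36e-05, and CLK1, a kinase of SR proteins, from 10.1 ± 5.4 to 72 ± 23.8 RPKM, adjusted p = 6.78e-04. Between MII and PN CLK1 had gone down, from 122 ± 53.8 to 22 ± 4.68 RPKM, adjusted p = 0.00577. The helicases and the catalytic core divided evenly, with 5 higher and 5 lower of 28. DHX16, a helicase, went from 0.274 ± 0.265 to 8.97 ± 2.63 RPKM, adjusted p = 4.69e-05. DDX23 (IMMRNTR2872), counted among the 5 higher, was listed at 0 at 4C, at a mean of 2.35 RPKM at 8C and of 0.0587 at Mo, and its name could not be checked. The partners of U1, U2 and the minor spliceosome had 4 higher and 3 lower of 12; RBM22 went from 178 ± 6.14 to 46.6 ± 10.4 RPKM, adjusted p = 5.62e-04, and PDCD7, of the minor spliceosome, from 1.0 ± 0.974 to 29.8 ± 25.3 RPKM, adjusted p = 6.42e-04. Of 24 entries for other regulators 5 were higher and 1 lower, led by RBM5 (2.92 ± 1.29 to 60.1 ± 30.8 RPKM, adjusted p = 2.45e-05). PCBP1, a poly(C)-binding protein of that list, went up, down and up again: it went from 15.4 ± 0.518 to 250.2 ± 51.1 RPKM, adjusted p = 2.98e-04, from GV to MI; down to 40.2 ± 4.73 RPKM, adjusted p = 0.00186, at MII; and up to 401 ± 111 RPKM, adjusted p = 8.52e-05, at PN.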

How the data were processed

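Gene expression was measured by RNA sequencing of 22 single oocytes and embryos at 9 stages. Per the labels' protocols, lysed whole cells went into Clontech's SMARTer Ultra Low Input chemistry, where priming is on poly(A) tails, followed by a TruSeq DNA kit, which does not mark strand. The authors deposited 1 table of RPKM values per entry and library, on build Mmul_8.0.1 per the submitters' processing notes; aligner, counter and annotation are not given in the sources used here. Because RPKM keeps no counts, no count test was used. Estimated depth came from whole-read steps of entries under 200 bp, of which 88.7% were within 0.05 of a whole read.

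Symbols came from a table of gene identifiers (60 of the members) or from the authors' name column; names of IMMRNTR entries could not be checked. Entries at 1 RPKM or more in at least 2 libraries (14312) were transformed as log2(RPKM + 1), which understates the change of low genes, and fitted with limma 3.58.1 in R 4.3.3, with 1 mean per stage and trended, robust moderation. P-values are 2-sided and Benjamini-Hochberg adjusted within a comparison over all 14312 entries, with calls under 0.05. The fit was tested on simulated data. Named by rule were, per comparison and class, up to 3 called members in each direction with the greatest change, no overlap between the stages' libraries and a stage mean of 10 RPKM or more, a panel of core genes, and up to 2 called genes per partner list. The members and lists were chosen with earlier results of these data known. Alternatives were a pseudocount of 0.1, no filter, a filter at 5 RPKM, median-of-ratios scaling, a fit of the compared stages alone, a replicate block, each library left out, and, chosen after seeing the data, entries matched by a further name column. Replicate numbers did not pair the samples. Promoter motifs and protein sequences were not analysed here. For 1 tested member, included in all counts, single values are not reported here.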

Additional observations from a re-analysis of the deposited data

How the results depend on the processing

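The counts of called members depended on the choices as follows. With median-of-ratios scaling they were 4 from MI to MII and 5 from MII to PN, against 7 and 10. Fits of the compared stages alone gave 23 calls for both MI to MII and GV to MII, 20 for MII to PN, 4 for GV to MI, 3 for 8C to Mo and 0 for Mo to Bl; these fits hold fewer libraries and test fewer entries. When each library was left out in turn, the lowest and highest counts were 24 and 45 for 4C to Bl, 16 and 32 for 4C to 8C, 9 and 16 for 8C to Mo, 5 and 17 for MII to PN, 2 and 16 for GV to MII, 2 and 10 for Mo to Bl, 1 and 12 for MI to MII, 0 and 1 for 2C to 4C, and 53 and 62 in the F test; GV to MI and PN to 2C stayed at 0. Mo library 2 was the one left out at the highest count, except for Mo to Bl and 2C to 4C. The cause was not tested. With the replicate number as a block, a replicate block fit, the counts were 38 for 4C to Bl, 24 for 4C to 8C, 10 for 8C to Mo, 10 for MII to PN, 7 for MI to MII, 6 for Mo to Bl and 5 for GV to MII; it ended 8 of the 103 calls of single members, which the settings listed beside those calls leave out. Same-numbered libraries of different stages had a median correlation of 0.00708 over 78 pairs, so the numbers show no pairing. Of 103 calls of single members, 61 were lost under at least 1 alternative and none of 1220 recomputed values reversed (0). Stages of 2 or 3 libraries limit what could be called, and 8C library 2, at an estimated 5.58 M reads, limits low values most.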
